A study of Mus musculus with 58 samples.

Results

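Microglia from Sgsh knockout (SgshKO) and wild-type (WT) mice were compared at 8 months of age, the oldest age of the series and a late stage of lysosomal storage. The comparison holds all libraries labelled with that age: 7 SgshKO and 4 WT, which is 11 of the 58 libraries of the series, and it was described over all 14309 genes with enough counts to test. The labels give the strain as C57BL/6 throughout and no treatment for these mice. Live single cells were sorted from the forebrain as CD11b+, CD45low and CX3CR1+, and polyA RNA was sequenced. The 3-week libraries (3 WT, 4 SgshKO) and 4-month libraries (2 WT, 2 SgshKO) of the same table entered the model as separate groups and serve here to ask whether the 8-month difference was itself different at the younger ages. The labels do not say which part of Sgsh is altered, whether littermates served as WT, whether each library came from its own mouse, or which sex the mice were. The p-values below therefore measure the spread between libraries, which may be technical.

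Sgsh encodes N-sulfoglucosamine sulfohydrolase, a lysosomal enzyme that removes the N-linked sulfate from glucosamine at the end of a heparan sulfate chain. Heparan sulfate is a sulfated sugar polymer carried by cell-surface and matrix proteins, and it is taken apart in the lysosome by exo-enzymes that act in turn, so that the loss of any of them leaves fragments that accumulate. Loss of SGSH in people causes mucopolysaccharidosis type IIIA (Sanfilippo syndrome), a childhood neurodegenerative disease in which microglia are among the cells that store. Microglia with a heavy lysosomal load in many brain diseases lower their resting (homeostatic) genes and raise a set of lysosomal, lipid and immune genes known as the disease-associated (DAM) programme. MITF, TFEB and TFE3 are related transcription factors that activate lysosomal genes when lysosomes are stressed.

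Values are CPM, read counts scaled to library size and composition. WT libraries held 10875209 to 20778877 counts and SgshKO libraries 11146412 to 27106584. In WT 7.12 to 7.90% of counts came from a library's 10 top genes, and in SgshKO 9.63 to 10.7%. Between libraries of the same genotype Pearson's r of log2 CPM across genes was 0.933 to 0.977, and between genotypes 0.896 to 0.938; genes are not independent replicates, and no 2 libraries held identical counts. Libraries stood apart in 4 ways that bear on the results. SgshKO libraries 3, 6 and 7 carried Xist (1335, 1626 and 1259 CPM) and almost no Ddx3y (0.151, 0.236 and 0.0903 CPM). The other 4 SgshKO libraries had at most 1.91 CPM of Xist and at least 94.9 CPM of Ddx3y, and the WT libraries at most 1.37 and at least 119.8 CPM. Libraries with Xist and without Ddx3y were thus found in SgshKO only, so that this difference is partly confounded with genotype at 8 months. SgshKO libraries 3 and 1 held the most neutrophil transcripts. SgshKO library 2 was set apart from the rest on the second principal component, which held 12.5% of the variance, while the first, with 43.7%, separated the genotypes. WT library 4 stood apart on the third component (8.73% of the variance; -77.2, against 17.7 to 37.2 in the other WT libraries) and held the most interferon-response transcripts of the WT libraries.

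Sgsh itself was at 31.9, 59.2, 49.2 and 37.1 CPM in the WT libraries and 20.1 to 34.7 CPM (median 25.8) in SgshKO. It was lower in SgshKO (log2 fold change -0.74 ± 0.16 SE, adjusted p = 0.00058), but the libraries of the genotypes overlapped. Since the altered part of the gene is not given, a transcript that is still counted checks the labels only in part. The gene lies on chromosome 11 from 119343489 to 119355510 (mm10, minus strand).

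Of the 14309 genes, 5793 (40.5%) passed edgeR's quasi-likelihood test at a Benjamini-Hochberg adjusted p under 0.05, of which 3090 were higher in SgshKO (21.6% of genes tested) and 2703 lower (18.9%). These shares of all genes are the background for the counts of list members given below, and no list was tested as a set. The median log2 fold change over all genes was 0.024. For 25.2% of the genes the 7 SgshKO and 4 WT libraries did not overlap at all, with SgshKO above in 14.0% and below in 11.2%. Increases were larger than decreases. With genes that had no count in a group set at their lower bound (3 counts over that group), changes of at least 2-fold were found for 1481 genes higher and 419 lower, of at least 4-fold for 787 and 130, and of at least 16-fold for 280 and 20. On the deposited TPM values, tested with limma, 6361 of 13406 genes passed and the split turned to 2241 higher and 4120 lower, with a median log2 difference of -0.11, so the balance between the directions depends on the scale. Without SgshKO libraries 1 and 3 the count was 5163, and without SgshKO libraries 3, 6 and 7 it was 5104.

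The largest increases differed in how evenly they appeared in the 7 SgshKO libraries. Of the 355 genes called with a fitted fold of at least 16, 327 had a WT mean under 1 CPM and 132 had no count in any WT library, for which the fitted fold is no bound. In only 73 of them was the highest SgshKO library within 3 times the lowest, against 573 of the 690 genes called 2- to 4-fold higher. However, the SgshKO mean was under 1 CPM for 121 of the 355 genes and for 3 of the 690. A gene at 0 in any SgshKO library counted as outside the limit. How much of this spread is counting error was not tested. SgshKO library 3 was the highest and library 1 the second highest for 33.2% of these 355 genes, compared with 3.15% of all genes tested and 4.93% of those 2- to 4-fold higher.

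The even increases were led by Hpse, which encodes heparanase, the endoglycosidase that cuts heparan sulfate chains internally. Hpse was at 0.277, 0.097, 0 and 0.265 CPM in WT and 155 to 187 CPM (median 168) in SgshKO, so that a transcript at the edge of detection in every WT library was at an almost constant level in every knockout library (log2 fold change 10.21 ± 0.38 SE, adjusted p = 3.1e-16). The other genes given here are the next of the 12 with the largest increases among those whose SgshKO libraries lay within 3 times of each other, a rule set after the values were seen. Lox, lysyl oxidase, which cross-links collagen and elastin, was at 0.347, 0.533, 0.33 and 0 CPM and 103 to 187 CPM (median 146) (log2 fold change 8.74 ± 0.30 SE, adjusted p = 7.8e-17). Chst2, a sulfotransferase that adds sulfate to N-acetylglucosamine, was at 7.08, 2.33, 2.6 and 4.78 CPM and 173 to 283 CPM (median 210.1) (log2 fold change 5.76 ± 0.24 SE, adjusted p = 3.4e-15). Cst7, which encodes cystatin F, an inhibitor of lysosomal cysteine proteases, was at 4.51, 3.2, 3.78 and 4.78 CPM and 168 to 228 CPM (median 185) (log2 fold change 5.61 ± 0.16 SE, adjusted p = 2.5e-18). The rule for the even increases also required at least 10 CPM in SgshKO and no overlap with WT. The separation in these 4 genes therefore follows from it. The remaining 8 rose from under 1 CPM in WT. They were Gpx3, an extracellular glutathione peroxidase (0.258 to 30.7 CPM), Acp5, the tartrate-resistant acid phosphatase of macrophages and osteoclasts (0.536 to 39.4 CPM), Bhlhe40, a transcriptional repressor (0.346 to 25.8 CPM), and the interferon-induced membrane protein gene Ifitm2 (0.262 to 16.5 CPM). The others were Gpnmb, a lysosomal and surface glycoprotein (0.421 to 25.5 CPM), the phospholipid-binding annexin Anxa2 (0.826 to 43.9 CPM), Lrguk (0.73 to 35.2 CPM) and the retinoid X receptor gene Rxrg (0.346 to 18.8 CPM).

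Genes of neutrophil granules and cytoplasm were among the uneven increases. Among the 12 largest increases with a mean of at least 10 CPM and no overlap, Hpse was joined by Retnlg, S100a8, Ltf, Anxa1, S100a9, Camp, Chil3, Itgb2l, Lcn2, Ngp and Cd24a. S100a8, which with S100a9 forms calprotectin, a major protein of neutrophil cytoplasm, was at 0.0694, 0.339, 0.236 and 0.354 CPM in WT. In SgshKO libraries 1 to 7 it was at 465, 133, 985, 103, 126, 66.7 and 132 CPM, highest in library 3 and next in library 1 (log2 fold change 10.12 ± 1.11 SE, adjusted p = 7.2e-08). Ltf, lactoferrin, ran in the same order at its top, with 486, 146, 984, 119, 138, 81.9 and 124 CPM in libraries 1 to 7 and at most 0.354 CPM in WT. Retnlg was at 0 in all WT libraries and at 1.13 to 34.3 CPM (median 6.87) in SgshKO, at least 271-fold higher over the group floor of 3 counts. Anxa1, an annexin abundant in neutrophils, had 3 WT counts in all and was higher by 1192 times (95% counting interval 408 to 5780.4).

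All 16 neutrophil markers tested rose (median log2 fold change 9.21, or 8.39 with the 5 genes absent from WT at their lower bound), and at 8 months the whole list summed to 759.8 to 887 CPM in WT and 1605 to 7617 CPM in SgshKO. Most of the WT sum is Csf3r, at 757 to 884 CPM, a receptor gene that microglia also express. Retnlg, Ly6g, Elane, Mpo and Padi4 had no count in WT, and in SgshKO the means were 12, 4.83, 2.1, 3.38 and 7.07 CPM. The means of Elane and Mpo rest on SgshKO libraries 1 and 3. Elane was at 8.02 and 6.69 CPM in these and at 0 in all other SgshKO libraries. Mpo was at 11.1 and 11.7 CPM in these and at 0 to 0.542 CPM in the others. Without SgshKO libraries 1 and 3, 14 of the 16 rose. Elane did not pass without any 1 of the WT libraries or without SgshKO library 1 or 3 (adjusted p of 0.050 to 0.070), nor on TPM (0.23), and Mpo did not pass on TPM (0.21). Of 10 monocyte markers 7 rose, and the list summed to 13.4 to 17.2 against 97.8 to 662 CPM. The member with the highest level in every SgshKO library was Chil3, at 39.6 to 411 CPM, which is also on the neutrophil list. Cd177, a surface gene best known from neutrophils, was at 12.1 to 129 CPM. Ccr2, which defines circulating inflammatory monocytes, was at 8.73 CPM in WT and 10.1 in SgshKO and did not pass (adjusted p = 0.61). Ly6c2, also a monocyte gene, had 1 WT count and was higher by 566 times (95% counting interval 101 to 22363). Of 8 border macrophage markers 6 rose (sum 16.8 to 32.8 against 65.5 to 109 CPM), led by Ms4a7, a membrane gene of those cells, which had 1 WT count and 2.84 to 7.55 CPM in SgshKO.

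Markers of other brain cells stayed low in both genotypes, and their sums were not all higher in SgshKO. The astrocyte list summed to 288 to 403 CPM in WT and 179 to 301 in SgshKO. Of its 10 members 4 rose, including Gfap (0.0763 to 2.63 CPM), and the glutamate transporter gene Slc1a3, which makes up most of the sum, fell (log2 fold change -0.66 ± 0.12 SE, adjusted p = 8.2e-05). Oligodendrocyte markers summed to 118 to 147 and 149.5 to 167 CPM. Of 9 tested 5 were higher (3 without WT library 4 and 2 on TPM), among them Mbp (42.1 to 54.2 CPM). Called were 50% of the astrocyte and 55.6% of the oligodendrocyte markers, beside 40.5% of all genes. Endothelial markers summed to 312 to 366 and 386 to 533 CPM, which is mostly the broadly expressed Bsg (282 to 438 CPM), and Pecam1 and Cdh5 fell, Cdh5 not without SgshKO libraries 3, 6 and 7 (adjusted p = 0.058). Of 6 neuron markers none passed in edgeR, 1 was past an unadjusted p of 0.05 and 1 passed in DESeq2 (2.21 to 5.48 and 3.68 to 5.89 CPM summed). Lymphocyte markers summed to 17.8 to 21.8 and 15 to 26.4 CPM with 2 of 4 higher, Cd4, which macrophages can also express, and Klrb1c. Klrb1c did not pass without WT library 1 or 2 (adjusted p = 0.053 for both). Nor did it pass with a Ddx3y and Xist covariate (0.13) or without SgshKO libraries 3, 6 and 7 (0.18). It was at 2.46, 3.11 and 2.35 CPM in those libraries and at 0.554 to 1.17 CPM in the other SgshKO libraries. Erythroid markers summed to 2.41 to 4.95 and 0.282 to 57.4 CPM, with 1 of 5 higher in edgeR, 4 in DESeq2 and 0 on TPM. That count was 0 without any 1 of WT libraries 2 to 4 or SgshKO libraries 2 to 4, and 4 without SgshKO library 1 or 5. The erythroid members Hba-a1 and Hba-a2 held the same values in every 8-month library, so they are not separate measurements in these counts and sums. The 12 genes that define microglia summed to 43165 to 51522 CPM in WT and 34579.9 to 38232 CPM in SgshKO, more than any of these lists, and 8 fell while 3 rose. Csf3r, Ccr2, Cd177 and Bsg were named after their values were seen. In bulk libraries, fewer cells of a type and less RNA per cell cannot be told apart, and how much the neutrophil, monocyte and border macrophage transcripts, in cells sorted as CX3CR1+, contributed to genes that both cell types express was not tested.

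**Figure D1:**
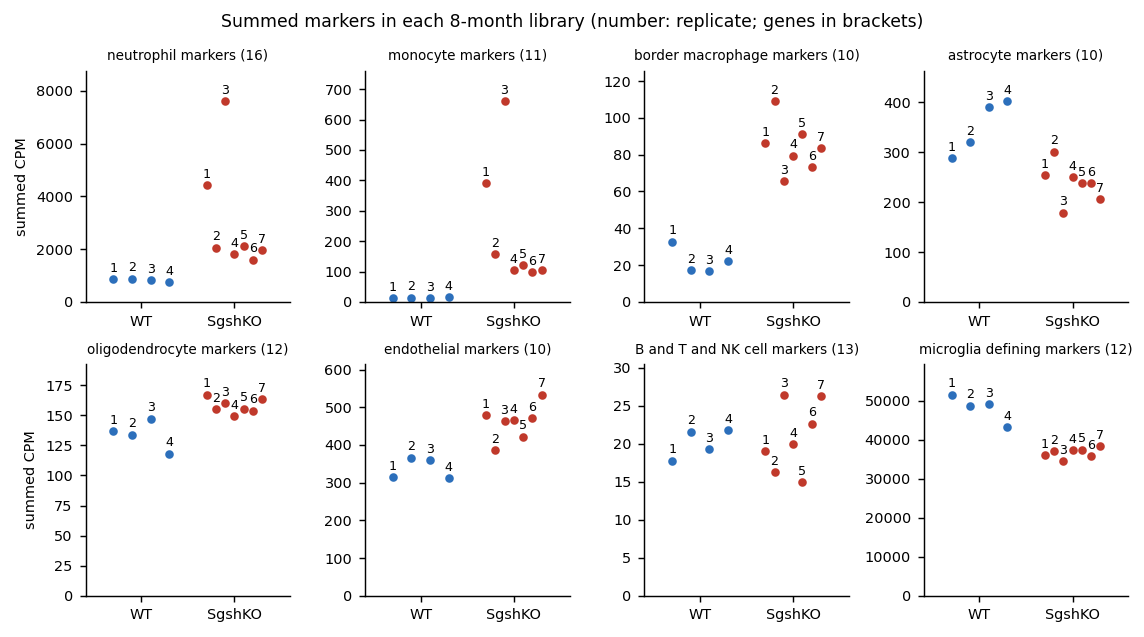
Summed CPM of 8 marker lists in each 8-month library (vertical axes, linear from 0; blue WT, red SgshKO; the number at a point is the replicate). Neutrophil and monocyte sums are highest in SgshKO libraries 3 and 1, while the sum of microglia-defining genes is lower in every SgshKO library than in any WT library.

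The largest decreases included genes of receptors and transcription factors. Gpr165, an orphan receptor gene, was at 341, 201, 196 and 163 CPM in WT and 1.33 to 4.09 CPM (median 2.46) in SgshKO (log2 fold change -6.45 ± 0.21 SE, adjusted p = 3.2e-17), the steepest fall among genes with at least 10 CPM and no overlap. Il7r, the interleukin-7 receptor chain, was at 149, 106, 103 and 96.5 CPM and 1.41 to 4.24 CPM (median 3.82) (log2 fold change -5.10 ± 0.20 SE, adjusted p = 6.1e-16). Mycl, a member of the MYC family, was at 205, 176, 166 and 122 CPM and 3.85 to 15.2 CPM (median 10.1) (log2 fold change -4.28 ± 0.23 SE, adjusted p = 2.7e-13). Genes were admitted only if every SgshKO library lay below every WT library, so the separation of these 3 follows from the rule. The same rule named Pdgfrb, a growth factor receptor best known from pericytes (15.6 to 0.345 CPM), Setbp1 (31.8 to 0.763 CPM), the ephrin gene Efnb2 (42.4 to 1.43 CPM), the semaphorin gene Sema6d (35.4 to 2.08 CPM). It also named Gp9 (28.1 to 1.69 CPM), Hif3a (50.3 to 3.38 CPM), Notch4 (230 to 15.5 CPM) with the Notch feedback gene Nrarp (14.9 to 1.2 CPM), and Hlf (51.9 to 4.24 CPM), a clock-controlled transcription factor.

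The largest absolute changes in CPM were taken among called genes without overlap between genotypes and with a mean of at least 10 CPM in a genotype. Among these, the increases were led by lysosomal and lipid proteins and the decreases by surface molecules of resting microglia. Ctsd, the aspartic protease cathepsin D, was at 11562, 12504, 12199.5 and 11605 CPM in WT and 25117 to 33858 CPM (median 27823) in SgshKO (log2 fold change 1.26 ± 0.069 SE, adjusted p = 3.8e-13). Ctsb, the cysteine protease cathepsin B, was at 2406, 2493, 2515 and 2426 CPM and 8226 to 10332 CPM (median 9317) (log2 fold change 1.91 ± 0.067 SE, adjusted p = 9.8e-17). Apoe, the main lipid carrier of the brain, was at 311, 349, 525 and 478 CPM and 4667 to 9708 CPM (median 7156) (log2 fold change 4.11 ± 0.24 SE, adjusted p = 1.6e-12). Mpeg1 (2496 to 6154 CPM), Ctss (3318 to 6962 CPM) and Psap, the precursor of the saposins that present lipids to lysosomal enzymes (4035 to 6195 CPM), followed. These 6 rose from levels that were already high in WT. Csf1r, the receptor on which microglia depend for survival, was at 13425, 13391, 12936 and 12092 CPM and 7870.2 to 8979 CPM (median 8784) (log2 fold change -0.61 ± 0.055 SE, adjusted p = 2.7e-09). Cx3cr1, whose product was also used to sort the cells, was at 8038, 7329, 7809.5 and 5972 CPM and 4305 to 4793 CPM (median 4509) (log2 fold change -0.69 ± 0.062 SE, adjusted p = 2.0e-09). Selplg (4831 to 2091 CPM), Serinc3 (5812 to 3655 CPM), P2ry12 (4669 to 2692 CPM) and Vsir (4232 to 2297 CPM) were the other 4. That all 12 had no overlap between genotypes follows from the rule that chose them.

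**Figure D2:**
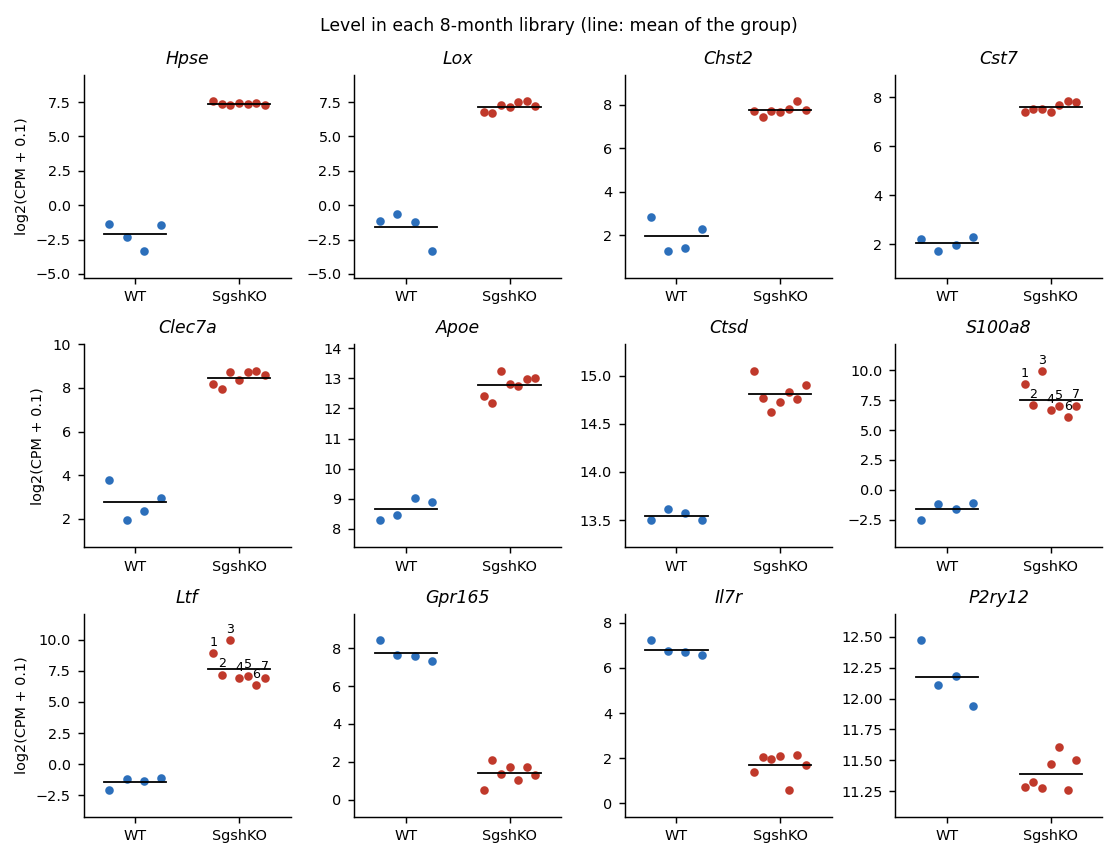
Level of 12 genes in each 8-month library (vertical axes, log2 of CPM + 0.1; blue WT, red SgshKO; the line is the group mean, and replicate numbers mark the SgshKO points of S100a8 and Ltf). Hpse, Lox, Chst2, Cst7 and Clec7a are at a similar height in all SgshKO libraries, whereas S100a8 and Ltf spread widely with libraries 3 and 1 on top.

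The enzymes that degrade heparan sulfate changed in both directions. Of 13 genes tested 7 rose and 2 fell, with a median log2 fold change of 0.53. Besides Hpse, Sulf2, an extracellular 6-O-endosulfatase, was at 14.1, 18.1, 12.5 and 12 CPM and 35.6 to 60.9 CPM (median 42.9) (log2 fold change 1.66 ± 0.15 SE, adjusted p = 4.1e-09). Arsg, the lysosomal 3-O-sulfatase, rose from 76.3 to 139.6 CPM (log2 fold change 0.87 ± 0.097 SE, adjusted p = 9.8e-08), and Naglu, the N-acetylglucosaminidase that acts after N-acetylation of the sugar left by SGSH, from 179.9 to 320.1 CPM (log2 fold change 0.83 ± 0.092 SE, adjusted p = 8.7e-08). Idua, an iduronidase, rose from 107 to 155 CPM and Gusb, beta-glucuronidase, from 313 to 451 CPM. Hgsnat, the membrane acetyltransferase that acts directly after SGSH, fell (log2 fold change -0.31 ± 0.085 SE, adjusted p = 0.0045), and with Sgsh it is the only member that did. Ids, the iduronate sulfatase, was at 142 to 181 and 155 to 230.1 CPM (adjusted p = 0.056), which passed in DESeq2 (0.046), without the count filter (0.049), with the Ddx3y and Xist covariate (0.046), and without WT library 1 or SgshKO library 3 or 7 (0.016 to 0.036). It also passed without SgshKO libraries 1 and 3 (0.041) or 3, 6 and 7 (0.014). Sulf1, Sumf1 and Sumf2 were at 2.24, 89.2 and 20.7 CPM in SgshKO and did not pass. Hpse2 had 1 count in the 11 libraries and was not tested.

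Of 22 genes of heparan sulfate synthesis, 4 rose and 6 fell (median -0.038), a share of 45.5% beside the 40.5% of all genes. Xylt1, which attaches the first sugar to the core protein, was at 1.06 to 2.81 CPM in WT and 8.13 to 17.6 in SgshKO (log2 fold change 2.69 ± 0.33 SE, adjusted p = 3.4e-07). Extl3, which starts chain elongation, fell from 595 to 417 CPM (log2 fold change -0.51 ± 0.063 SE, adjusted p = 4.1e-07). The 3-O-sulfotransferase Hs3st3b1 fell from 19.7 to 8.86 CPM, and Hs3st2 from 0.812 to 0.0645 CPM, a level of 5 counts over the 7 SgshKO libraries; the fall of Hs3st3b1 did not pass without WT library 4 (adjusted p = 0.10). Of 12 core proteins 5 rose and 2 fell (58.3% called, beside 40.5% of all genes). Gpc4, a glypican, was at 0 to 0.354 CPM and 6.16 to 15.9 CPM (log2 fold change 5.95 ± 0.65 SE, adjusted p = 6.5e-08), and the syndecans Sdc3 (110.2 to 374 CPM) and Sdc4 (20.4 to 60.7 CPM) also had no overlap. Gpc1 rose unevenly (0.413 to 11.7 CPM in SgshKO), and Gpc2 fell (57.7 to 37.3 CPM).

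Genes of the lysosome rose broadly, though not throughout. Of 43 hydrolases outside the cathepsins, 29 rose and 5 fell (median 0.67), with 9 lower on TPM and 3 without WT library 1. Of 15 cathepsins and cystatins 10 rose and 0 fell in edgeR, with 0 lower also at an unadjusted p under 0.05 and in DESeq2 and 2 lower on TPM (median 1.07). Of 37 membrane proteins 23 rose and 2 fell (4 lower on TPM; median 0.27), and of 21 subunits of the V-ATPase, the proton pump that acidifies lysosomes, 12 rose and 1 fell (2 lower on TPM, in DESeq2, and without WT library 4 or SgshKO library 5; median 0.74). Without SgshKO libraries 1 and 3 these counts were 28, 10, 23 and 12 higher. Among hydrolases, Glb1, beta-galactosidase, was at 88.4, 92.8, 91.4 and 86 CPM and 239 to 283 CPM (median 259) (log2 fold change 1.53 ± 0.096 SE, adjusted p = 3.9e-12). Cpq (16.6 to 66 CPM), a carboxypeptidase, and Plbd1 (0.228 to 12.1 CPM) were also among the largest, Plbd1 with a wide spread of 4.29 to 39.4 CPM over the SgshKO libraries. Arsb, arylsulfatase B, was the largest fall that passed (829 to 669.9 CPM; log2 fold change -0.31 ± 0.091 SE, adjusted p = 0.0085), and it did not pass without WT library 1 (adjusted p = 0.10).

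Ctsl, cathepsin L, was at 489.6, 252, 283 and 501 CPM and 1238 to 1461 CPM (median 1404) (log2 fold change 1.85 ± 0.15 SE, adjusted p = 3.7e-10), and the intracellular aspartic protease gene Ctse rose from 1.24 to 13.7 CPM. Among membrane proteins Cd63, a tetraspanin of late endosomes, was at 38.2, 32.1, 42.7 and 47.8 CPM and 188 to 277 CPM (median 254) (log2 fold change 2.65 ± 0.14 SE, adjusted p = 1.2e-13). The calcium channel genes Mcoln2 and Mcoln3, with 0 and 1 WT counts, reached 0.542 to 3.19 and 0.271 to 2.15 CPM in SgshKO, at least 32.8-fold higher for Mcoln2. Igf2r, which carries mannose 6-phosphate-tagged enzymes to lysosomes, rose from 1.46 to 7.07 CPM, and Slc38a9, an arginine sensor of the lysosomal membrane, fell (109 to 73.2 CPM; log2 fold change -0.57 ± 0.11 SE, adjusted p = 0.00019). Among V-ATPase subunits, Atp6v1a of the catalytic head rose from 68.9 to 184 CPM and Atp6v0c from 25.3 to 58.2 CPM. The membrane subunit Atp6v0a2 fell from 432 to 159.6 CPM (log2 fold change -1.44 ± 0.11 SE, adjusted p = 2.4e-10). Atp6v0d2, the isoform known from osteoclasts, went from 0 counts in WT to 0.92 to 1.58 CPM, at least 25.7-fold higher.

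Promoters of 4 of the genes that rose in the lysosomal lists are shown because each holds the 8-letter palindrome TCACGTGA, the form of the E-box that MITF, TFEB and TFE3 are known to bind in lysosomal genes. They are the 120 bases before the RefSeq start, on GRCm38.p6, 5′ to 3′ on the gene's strand, with the palindrome in capitals. Igf2r is at chr17:12769707-12769826, minus strand, Ctsd at chr7:142387828-142387947, minus strand, Ctsa, which protects other lysosomal enzymes, at chr2:164833653-164833772, plus strand, and Mcoln1, a lysosomal calcium channel, at chr8:3500399-3500518, plus strand.
Igf2r: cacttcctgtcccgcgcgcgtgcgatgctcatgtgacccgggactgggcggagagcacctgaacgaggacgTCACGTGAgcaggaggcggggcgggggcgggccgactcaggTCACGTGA
Ctsd: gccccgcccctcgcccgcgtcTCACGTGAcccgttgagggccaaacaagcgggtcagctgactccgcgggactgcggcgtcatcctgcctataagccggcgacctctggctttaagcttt
Ctsa: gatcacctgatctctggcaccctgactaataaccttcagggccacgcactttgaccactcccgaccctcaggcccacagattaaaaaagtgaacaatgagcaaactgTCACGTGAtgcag
Mcoln1: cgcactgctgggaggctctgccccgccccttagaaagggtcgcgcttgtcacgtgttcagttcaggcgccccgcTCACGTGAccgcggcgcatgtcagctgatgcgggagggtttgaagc

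The first base of the palindrome lies 49 and 8 bases before the start in Igf2r, 99 in Ctsd, 13 in Ctsa and 46 in Mcoln1. Ctsa (1069 to 2075 CPM; log2 fold change 0.96) and Mcoln1 (70.3 to 92.1 CPM; 0.39) were picked for their promoters after the values were seen. In windows of 300 bases (250 before to 50 after the start, both strands) the palindrome is in 208 of the 10980 promoters that matched a tested gene, 1.89%. It is in 10 of the 55 matched lysosomal genes that rose and in 1 of the 34 that did not. Since the table holds promoters for 89 of the 116 lysosomal genes tested, 76.7% and so under 80%, a comparison of these shares is void as a check, and a match of letters is not a binding site.

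The genes of these factors were measured too. Mitf was at 47.4, 48.4, 55.8 and 44.1 CPM in WT and 73.6 to 101 CPM (median 89.4) in SgshKO (log2 fold change 0.84 ± 0.091 SE, adjusted p = 5.7e-08). Tfeb was at 43.6 to 66.6 and 50.2 to 69.8 CPM (adjusted p = 0.14, and 0.031 without WT library 2), Tfe3 at 201 to 238 and 204 to 245 CPM (adjusted p = 0.57), and Tfec at 0.242 to 1.95 and 0.901 to 3.61 CPM (adjusted p = 0.21). Of the 4, Mitf alone passed. In the list of these factors and the nutrient-sensing machinery on the lysosome, 9 of 27 rose and 4 fell (median 0.21), 6 and 8 on TPM. The share called was 48.1%, beside 40.5% of all genes. Without WT library 4, or without SgshKO libraries 3, 6 and 7, 5 rose. Rragd, a Rag GTPase, was at 1.73, 4.27, 3.02 and 0.884 CPM and 38.9 to 69 CPM (median 54.8) (log2 fold change 4.44 ± 0.26 SE, adjusted p = 1.1e-12), and Fnip2, a partner of folliculin, rose from 86.5 to 258 CPM. The sestrin gene Sesn1, whose product restrains mTORC1, fell (222 to 113 CPM; log2 fold change -0.98 ± 0.12 SE, adjusted p = 7.4e-07). Of 38 autophagy genes 9 rose and 7 fell, a share of 42.1% beside the 40.5% of all genes. On TPM 13 fell and the median was -0.11, and without WT library 2 4 fell. The receptors Optn (3 to 15 CPM) and Sqstm1 (164 to 293 CPM) and the LC3-family genes Gabarap (119.5 to 258 CPM) and Gabarapl1 (28.6 to 57.8 CPM) rose. Atg101, of the initiation complex, was the largest fall (19.4 to 15.2 CPM; log2 fold change -0.35 ± 0.14 SE, adjusted p = 0.044). It did not pass with the 8-month libraries fitted alone (adjusted p = 0.059), nor without any of WT libraries 2 to 4 or SgshKO libraries 1, 2 and 4 to 6 (0.050 to 0.22).

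Of 40 DAM genes tested 39 rose and 0 fell in edgeR (median log2 fold change 2.76). At an unadjusted p under 0.05, in DESeq2 and on TPM 0 were lower as well. For 38 of them every SgshKO library lay above every WT library, as for 14.0% of all genes. The member that did not pass was the chemokine gene Ccl6 (adjusted p = 0.19), which passed without WT library 1 (0.039). The list was written with earlier results of these data known, so its direction is no independent evidence. Mamdc2 was at 0 to 0.145 CPM and 5.89 to 20.2 CPM (log2 fold change 7.42 ± 0.54 SE, adjusted p = 5.4e-11). Gpnmb was at 0.277, 0.582, 0.472 and 0.354 CPM and 16.6 to 40.1 CPM (median 25.2) (log2 fold change 5.84 ± 0.75 SE, adjusted p = 8.5e-07). Spp1, osteopontin, a secreted matrix protein, was at 0.694, 0.436, 0.849 and 6.19 CPM and 42.1 to 162 CPM (median 91.2) (log2 fold change 5.72 ± 0.47 SE, adjusted p = 5.1e-10). Clec7a, the beta-glucan receptor dectin-1, was at 13.9, 3.73, 5.05 and 7.78 CPM and 246 to 438 CPM (median 379) (log2 fold change 5.61 ± 0.29 SE, adjusted p = 9.3e-14). The lowest SgshKO value exceeded the highest WT value in each.

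Lipid genes rose more often than they fell. Of 31 genes of lipid uptake, storage and efflux 17 rose and 8 fell. Those that rose included Fabp5, a fatty acid carrier (0.355 to 8.15 CPM), Dgat2, which makes triglyceride (0.306 to 6.76 CPM), Ch25h, which makes 25-hydroxycholesterol (0.33 to 6.9 CPM), and Apoc2 with 1 WT count and 1.17 to 2.54 CPM in SgshKO. The lipases Mgll (139.9 to 77.2 CPM; log2 fold change -0.86 ± 0.086 SE, adjusted p = 1.4e-08), Pnpla2 (201 to 123 CPM) and Lipe (86.6 to 56.5 CPM) fell, the latter 2 named after their values were seen. Of 24 cholesterol synthesis genes 15 rose and 0 fell in edgeR, with 0 lower also at an unadjusted p under 0.05, in DESeq2 and on TPM. Stard4, a sterol carrier, rose from 3.14 to 11.7 CPM (log2 fold change 1.92 ± 0.25 SE, adjusted p = 7.5e-07), and Sqle, an enzyme of the pathway, from 2.99 to 6.79 CPM (log2 fold change 1.21 ± 0.26 SE, adjusted p = 0.0005).

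Of 33 homeostatic genes 25 fell and 4 rose (median -0.59). Gpr165 and Il7r, described above, were the steepest, followed by Upk1b (73.2 to 17 CPM; log2 fold change -2.11 ± 0.21 SE, adjusted p = 1.9e-08) and Nav3 (327 to 118 CPM). Abundant surface genes fell by less: Tmem119 was at 3837, 4088, 3743 and 3463 CPM and 1734 to 2079 CPM (median 1834) (log2 fold change -1.02 ± 0.075 SE, adjusted p = 7.3e-11). P2ry12 was at 5677, 4417, 4657 and 3926 CPM and 2452 to 3122 CPM (median 2558) (log2 fold change -0.79 ± 0.09 SE, adjusted p = 1.2e-07). The members that rose were Serpine2, Gpr84, Trem2 and Fcrls, with Serpine2, a protease inhibitor, the largest (448 to 811 CPM; log2 fold change 0.86 ± 0.068 SE, adjusted p = 2.7e-10); Trem2, the lipid receptor of microglia, stands also on the DAM list. Among 37 transcription factors of microglia, 10 rose and 13 fell. Bhlhe40 was at 0.139, 0.194, 0.519 and 0.531 CPM and 16.8 to 35.4 CPM (median 27.1) (log2 fold change 6.22 ± 0.33 SE, adjusted p = 1.8e-13), Atf3, a stress-induced factor, rose from 19.5 to 63.6 CPM, and the lipid-sensing receptor gene Pparg, with 2 WT counts, reached 0.642 to 1.89 CPM.

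Of 23 genes of TGF-beta signalling, which maintains the homeostatic state of microglia, 11 fell and 2 rose (median -0.19). The share called was 56.5%, beside 40.5% of all genes. Eng, a co-receptor, was at 189.5 to 264 CPM in WT and 82 to 116 in SgshKO (log2 fold change -1.26 ± 0.091 SE, adjusted p = 5.4e-11), and Itgav, the integrin chain that frees TGF-beta from its latent form, fell from 391 to 233 CPM. The inhibitory Smad6 rose (5.43 to 9.06 CPM), and so did Itgb8 at a low level (0.171 to 0.889 CPM). Smad6 did not pass without WT library 1 or 4 (adjusted p of 0.096 and 0.12), nor Itgb8 without WT library 1 or 2 or SgshKO library 2 or 6 (0.056 to 0.11). Without SgshKO libraries 3, 6 and 7 neither passed (0.061 for Smad6 and 0.069 for Itgb8), and 0 members rose. Smad6 also did not pass without SgshKO libraries 1 and 3 (0.063), nor Itgb8 with the Ddx3y and Xist covariate (0.052). Of 14 purinergic receptors and nucleotide-cleaving enzymes 5 rose and 6 fell. P2rx1 fell from 20 to 4.99 CPM and P2ry2 rose from 0.759 to 7.7 CPM, as did the ectoenzyme gene Enpp1 (13.9 to 49.1 CPM), and P2ry14 went from 0 counts to 0.138 to 1.25 CPM.

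**Figure D3:**
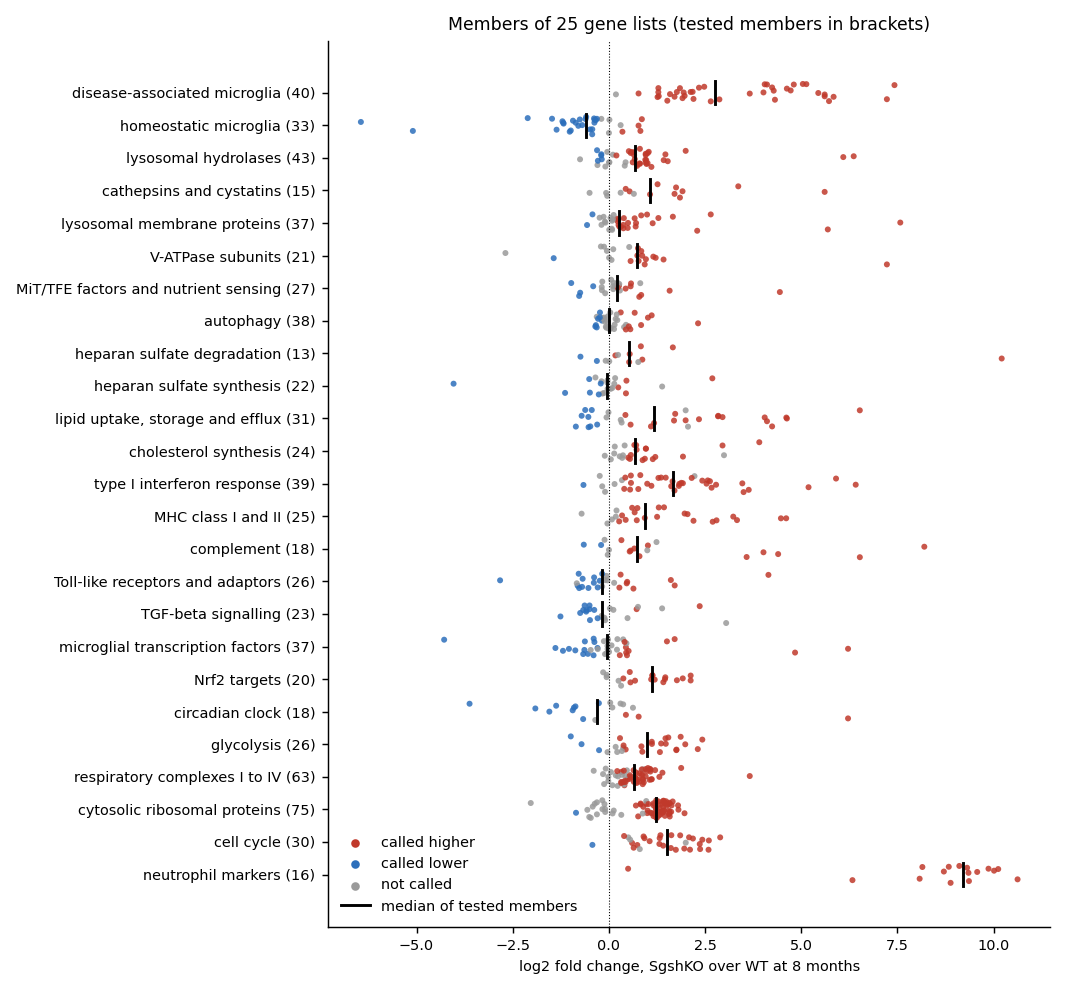
Log2 fold change of SgshKO over WT at 8 months (horizontal axis) for the tested members of 25 gene lists, 1 point per gene, red where called higher, blue where called lower, grey where not called; the bar is the median and the number in brackets the members tested. The DAM list lies to the right of 0 with a median of 2.76, the homeostatic list mostly to the left, and the lysosomal lists to the right with some members on the left.

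Of 39 type I interferon response genes 32 rose and 1 fell (median 1.65), 29 and 1 without SgshKO libraries 1 and 3. The list summed to 811, 805, 863 and 1563 CPM in WT libraries 1 to 4 and to 1219 to 1982 CPM in SgshKO, so that WT library 4 lay within the SgshKO range. Without it 34 rose and 1 fell (median 1.79). Oas2, an antiviral synthetase, was at 3.4, 2.04, 1.7 and 9.64 CPM and 22.8 to 76.8 CPM (median 44.4) (log2 fold change 3.63 ± 0.42 SE, adjusted p = 1.4e-07). Oas3 (0 to 0.416 and 2.53 to 19.8 CPM), Ifi44 (0 to 0.265 and 0.964 to 5.34 CPM) and Ifi203, with 2 WT counts, rose more steeply but spread at least 5 times over the SgshKO libraries. Slfn8 fell (155 to 97.6 CPM; log2 fold change -0.66 ± 0.14 SE, adjusted p = 0.00063). The interferon-inducible GTPases, with 46.7% called beside 40.5% of all genes, did not move as a block: of 15 tested 4 rose and 3 fell (5 lower on TPM). Their sum was 425 to 449 CPM in WT libraries 1 to 3, 714 CPM in WT library 4 and 340.4 to 428 CPM in SgshKO. Gbp6 was up from 0.177 to 4.27 CPM and Tgtp2 from 0.218 to 1.86 CPM, and Gbp7 and Gbp3 were down from 174 to 70.2 CPM and from 28 to 11.2 CPM. Without WT library 4, Slfn8 (-0.43), Gbp7 (-0.97) and Gbp3 (-1.08) still passed as lower.

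Promoters of 3 interferon-response genes are shown because each holds the motif GAAA followed, after 2 bases of any kind, by GAAA again, the core of the element through which interferon-activated factors are known to act. They are the 120 bases before the RefSeq start as above, with the repeat, read on either strand and overlapping copies included, in capitals. Isg15, a ubiquitin-like modifier (2.28 to 6.21 CPM; log2 fold change 1.48), is at chr4:156200819-156200938, minus strand; Ifit1, which binds foreign RNA (3.01 to 10.4 CPM; 1.83), at chr19:34640769-34640888, plus strand; and Oas1a (4.23 to 21.9 CPM; 2.43) at chr5:120907526-120907645, minus strand. All 3 were picked for their promoters after the values were seen.
Isg15: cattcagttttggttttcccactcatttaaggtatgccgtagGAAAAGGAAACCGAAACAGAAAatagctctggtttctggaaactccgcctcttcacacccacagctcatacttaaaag
Ifit1: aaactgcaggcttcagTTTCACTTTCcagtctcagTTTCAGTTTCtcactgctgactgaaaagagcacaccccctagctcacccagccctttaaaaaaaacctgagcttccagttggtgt
Oas1a: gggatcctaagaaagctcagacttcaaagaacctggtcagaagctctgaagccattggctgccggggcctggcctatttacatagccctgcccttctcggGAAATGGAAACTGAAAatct

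The repeat is in 351 of the 10980 matched promoters (3.20%, windows of 300 bases, both strands) and in 19 of the 29 matched genes of the interferon list. The table held promoters for 29 of its 39 tested members, 74.4%, so that a comparison of these shares is void as a check, and a match is not a binding site.

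Of 25 MHC class I and class II genes 20 rose and 0 fell in edgeR, with 1 lower at an unadjusted p under 0.05, 0 in DESeq2 and 2 on TPM (median 0.93). H2-Aa, a class II chain, was at 0.832, 2.23, 0.708 and 0.708 CPM and 21.8 to 30.8 CPM (median 29.7) (log2 fold change 4.61 ± 0.28 SE, adjusted p = 2.2e-12), and H2-Eb1, also of class II, at 0.0884 to 2.22 and 14.2 to 29.2 CPM. Ciita, the class II activator, was at 0 to 0.347 CPM in WT and 0.0903 to 3.3 in SgshKO with overlap, and the class I-like H2-Q7 rose from 1.1 to 11.4 CPM; reads of the closely related H2-Q genes may be shared between them. Of 18 complement genes 11 rose and 2 fell. C3, the central component, was at 1.25, 0.436, 0.472 and 1.95 CPM and 34.5 to 187 CPM (median 72.4) (log2 fold change 6.52 ± 0.58 SE, adjusted p = 2.0e-09). Itgax, a complement receptor chain, was at 21.1, 15.2, 16.6 and 26 CPM and 177 to 494 CPM (median 306) (log2 fold change 4.02 ± 0.25 SE, adjusted p = 3.3e-12). C4b ranged from 46.3 to 643 CPM over the SgshKO libraries with library 2 at 643 CPM, against 4.11 to 21.3 CPM in WT. C2 had 3 WT counts and was higher by 356 times (95% counting interval 122 to 1726), and the receptor gene C5ar2 fell (182 to 116 CPM).

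Inflammatory signalling genes were mixed. Of 24 chemokine and chemokine receptor genes 11 rose and 6 fell, or 3 fell without SgshKO library 3. Cxcr4 was at 0.613 to 2.29 and 19.8 to 57 CPM (log2 fold change 4.76 ± 0.40 SE, adjusted p = 6.1e-10) and Cxcl14 rose from 0.0826 to 4.98 CPM. Cxcl2 and Cxcl13 had no count in WT and reached at most 3.29 and 2.08 CPM, with at least 1 SgshKO library at 0, and Ccr1 fell from 21 to 6.7 CPM. Of 26 genes of the interleukin-1, TNF and inflammasome list 6 rose and 7 fell (50% called, beside 40.5% of all genes). The interleukin-1 receptor antagonist Il1rn (0.528 to 11.2 CPM), its receptor genes Il1r1 (1.22 to 17.8 CPM) and Il1r2 (0.106 to 1.77 CPM) and Tnf (14.1 to 50.7 CPM) rose. The interleukin-10 receptor gene Il10ra fell (1095 to 575 CPM; log2 fold change -0.93 ± 0.087 SE, adjusted p = 5.0e-09). Of 26 Toll-like receptors and adaptors 8 rose and 12 fell. Tlr2 was at 103, 94.9, 88 and 88.8 CPM and 239.7 to 329 CPM (median 283) (log2 fold change 1.61 ± 0.081 SE, adjusted p = 8.1e-14). Tlr5 fell from 41.9 to 5.9 CPM (log2 fold change -2.83 ± 0.14 SE, adjusted p = 5.1e-14). The inhibitory kinase gene Irak3 rose from 3.96 to 12.8 CPM, and Tlr8 rose from 0.121 to 2.52 CPM with a range of 0.271 to 5.61 CPM.

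Of 28 genes of TREM2 and other immune receptors 14 rose and 5 fell. Lilrb4a, an inhibitory receptor, was at 2.03 to 3.8 and 51.8 to 84.1 CPM (log2 fold change 4.72 ± 0.20 SE, adjusted p = 5.0e-15), and Siglece, also inhibitory, fell from 114 to 45.7 CPM (log2 fold change -1.32 ± 0.073 SE, adjusted p = 4.9e-13). Trem3, at 0 in WT and at 0 to 8.95 CPM in SgshKO, and Clec4e (0.361 to 5.02 CPM) were uneven, and Clec4e did not pass without SgshKO libraries 1 and 3 (adjusted p = 0.059). Of 19 phagocytic and scavenger receptors 9 rose and 4 fell. Axl, a receptor for phosphatidylserine-bridging ligands, was at 24.5, 12.8, 16.1 and 14.3 CPM and 352 to 659 CPM (median 464) (log2 fold change 4.81 ± 0.23 SE, adjusted p = 4.3e-14). Colec12 (0.0727 to 6.11 CPM), Olr1 (0.142 to 3.24 CPM) and Cd163 (0.109 to 1.33 CPM) rose from low levels.

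Growth factors rose in part. Of 28 growth factor and receptor genes 13 rose and 4 fell (60.7% called, beside 40.5% of all genes). Igf1, an insulin-like growth factor, was at 2.43, 1.94, 2.69 and 0.354 CPM and 51.8 to 84.2 CPM (median 70.7) (log2 fold change 5.13 ± 0.26 SE, adjusted p = 7.1e-14). The VEGF receptor gene Flt1 rose from 0.787 to 8.93 CPM. Inhba rose from 0.0999 to 3.99 CPM with a range of 1.08 to 14.6 CPM, Gdf3 went from 0 counts to a mean of 0.481 CPM, and the binding protein Igfbp4 fell from 36.6 to 6.87 CPM (log2 fold change -2.40 ± 0.29 SE, adjusted p = 3.3e-07). Among 20 genes of ERK feedback and PEA3 factors 3 rose and 6 fell (45% called, beside 40.5% of all genes). The PEA3 gene Etv4 was at 0.208, 0.291, 0.755 and 0.973 CPM and 10.5 to 23 CPM (median 13.6) (log2 fold change 4.74 ± 0.39 SE, adjusted p = 5.7e-10). Ier3 rose from 26.4 to 85.8 CPM, and Etv1 (33.3 to 11.6 CPM) and the AP-1 member Fosl2 (89.1 to 29.5 CPM) fell.

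Of 26 integrins and adhesion genes 9 rose and 8 fell (65.4% called, beside 40.5% of all genes). Cd44 (1.01 to 21.6 CPM), Itgal (0.957 to 17.2 CPM) and Itga4 (1.07 to 17.2 CPM) rose, all 3 also expressed by blood leukocytes. Pecam1 fell (50.2 to 9.46 CPM; log2 fold change -2.41 ± 0.12 SE, adjusted p = 7.0e-14). Of 22 matrix proteases and inhibitors 14 rose and 3 fell; Lox was even over the libraries, while Mmp9 (5.99 to 97.9 CPM in SgshKO) and Mmp8 (4.38 to 54.4 CPM), both neutrophil granule proteases, were not. Adam19 had 1 WT count and 0.632 to 5.7 CPM in SgshKO, and Mmp15 fell from 9.09 to 2.57 CPM. Of 14 annexin and S100 genes 12 rose and 0 fell in edgeR, with 0 lower also at an unadjusted p under 0.05, in DESeq2 and on TPM. Anxa2 was at 0.416, 1.31, 0.519 and 1.06 CPM and 35.5 to 54.6 CPM (median 41.8) (log2 fold change 5.72 ± 0.24 SE, adjusted p = 3.3e-15). Anxa5, which binds phosphatidylserine, was at 9.99, 13.3, 12.7 and 9.2 CPM and 111 to 139 CPM (median 119) (log2 fold change 3.41 ± 0.11 SE, adjusted p = 3.2e-17), while S100a6 spread over 1.93 to 17.7 CPM.

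Genes of iron storage and oxidative defence rose. The ferritin heavy and light chains Fth1 (482, 475, 414 and 545 CPM and 1889.6 to 2296 CPM (median 2069.6); log2 fold change 2.12 ± 0.082 SE, adjusted p = 5.9e-16) and Ftl1 (258 to 975 CPM) are on both the iron list (10 of 16 higher, 2 lower or 4 on TPM) and the Nrf2 target list (15 of 20 higher and 0 lower in edgeR, also at an unadjusted p under 0.05, in DESeq2 and on TPM, median 1.11). NRF2 is the transcription factor that senses oxidative stress. Osgin1 (7.94 to 34.9 CPM), the peroxiredoxin gene Prdx1 (37.3 to 127 CPM), the ferroptosis suppressor Aifm2 (0.783 to 6.17 CPM) and the cystine transporter Slc7a11 (2.91 to 8.09 CPM) rose, and Acsl4 fell (122 to 87.3 CPM). Of 24 targets of ATF4, the factor of the integrated stress response, 7 rose and 4 fell (45.8% called, beside 40.5% of all genes). Psat1, of serine synthesis, rose from 26.1 to 130.1 CPM, Chac1 had 1 WT count and a mean of 0.425 CPM in SgshKO, and Ddit4, an mTORC1 inhibitor, fell from 529 to 96.9 CPM (log2 fold change -2.45 ± 0.32 SE, adjusted p = 1.0e-06). Heat shock chaperones gave 2 higher and 3 lower of 16 (31.25% called, under the 40.5% of all genes), with Hspb1 (4.55 to 0.561 CPM), Hspa1b (202 to 38.7 CPM) and Bag3 (48.6 to 37.7 CPM) down. Bag3 did not pass without WT library 2 (adjusted p = 0.14), and Hspd1, a mitochondrial chaperone, was higher (34.2 to 41.1 CPM; adjusted p = 0.049) but passed neither in DESeq2 (0.055) nor without WT library 1, 2 or 3 or any of SgshKO libraries 2 to 7 (0.053 to 0.19). Of 17 genes that cell isolation is known to induce (35.3% called, beside 40.5% of all genes), 1 rose (Atf3) and 5 fell, or 2 and 8 with the 8-month libraries fitted alone and 1 and 8 without the count filter. Those that fell included Socs3 (467 to 144 CPM), Egr1 (1839.6 to 804 CPM) and Rhob (3749 to 1838 CPM).

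Genes of metabolism, ribosomes and division rose more often than they fell. Of 26 glycolysis genes 18 rose and 3 fell. Tpi1 (35.7 to 177 CPM), Aldoa (208 to 757 CPM), Pgk1 (2.37 to 9.33 CPM) and Aldoc (0.702 to 3.82 CPM) had no overlap, and the fructose transporter Slc2a5 fell (461 to 232 CPM; log2 fold change -0.99 ± 0.17 SE, adjusted p = 3.4e-05). Of 63 subunits of respiratory complexes I to IV 46 rose and 0 fell in edgeR, also at an unadjusted p under 0.05, in DESeq2 and on TPM (median 0.65). Without SgshKO libraries 3, 6 and 7 the number that rose was 35, and on TPM 38. Cox6a2, a muscle isoform, was the largest (1.08 to 13.6 CPM), then Ndufa1 (4.79 to 17.8 CPM), Cox4i1 (41.8 to 109.9 CPM) and Uqcrh (16 to 39.9 CPM). Of 75 cytosolic ribosomal proteins 56 rose and 1, Rps27a, fell, the last not without WT library 4 or SgshKO library 5 or 7 (adjusted p of 0.054 to 0.26) (median 1.23; 56 and 3 on TPM). Rplp1 was at 169.9, 213, 191 and 184 CPM and 417 to 769 CPM (median 590.2) (log2 fold change 1.66 ± 0.17 SE, adjusted p = 1.9e-08). Rpl37a (4.21 to 16.7 CPM), Rpl41 (19.7 to 69.7 CPM) and Rps28 (6.17 to 21.6 CPM) rose too. Ribosomal protein genes have many processed copies in the genome, so their counts are uncertain where the counting could split reads. Of 30 cell cycle genes 25 rose and 1 fell (median 1.51). Top2a, a marker of dividing cells, was at 3.19, 4.17, 4.86 and 2.56 CPM and 12.8 to 42.5 CPM (median 18.3) (log2 fold change 2.60 ± 0.38 SE, adjusted p = 5.6e-06). Ube2c (0.647 to 4.59 CPM) and Bub1 (0.574 to 3.57 CPM) rose. Rrm2 (0.96 to 5.23 CPM) did not pass without SgshKO libraries 1 and 3 (adjusted p = 0.061). The replication licensing gene Mcm7 fell (25 to 18.6 CPM), though not without WT library 2 or 3 or SgshKO library 4, 5 or 6 (0.062 to 0.12). Without SgshKO libraries 1 and 3, the libraries with the most neutrophil transcripts, 22 cell cycle genes rose.

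Clock genes changed in both directions. Of 18 tested 9 fell and 3 rose (Bhlhe40, Bhlhe41 and Rora). Nr1d1, the repressor REV-ERB alpha, was at 39.5, 42.2, 50.3 and 35.4 CPM and 8.46 to 14.1 CPM (median 10.8) (log2 fold change -1.91 ± 0.17 SE, adjusted p = 1.7e-09). Per3, a period gene, was at 65.2, 63.3, 70.3 and 68.7 CPM and 17.7 to 31.4 CPM (median 22.6) (log2 fold change -1.55 ± 0.14 SE, adjusted p = 2.8e-09). Hlf and Dbp, output factors of the PAR bZIP family, were at 56, 51.9, 57.9 and 41.7 CPM and 2.84 to 7.85 CPM (median 3.96), and at 44, 56.4, 49.3 and 34.8 CPM and 13.6 to 23.1 CPM (median 17.1). The groups did not overlap in any of the 4. The labels give no hour of collection.

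Whether the 8-month effect was itself specific to age was tested as a difference of genotype effects. It differed from the 3-week effect for 1323 genes (9.25% of those tested; 856, or 5.98%, with a more positive and 467, or 3.26%, with a more negative log2 fold change at 8 months), of which 1254 were also called at 8 months. On TPM the split was 698 and 665. In 816 of these the gene was higher at 8 months and more so than at 3 weeks, and in 435 lower and more so. At 3 weeks alone 1292 genes (9.03%; 5.31% higher and 3.72% lower) were called, and 1105 of them, 85.5%, were called in the same direction at 8 months, which is 19.1% of the 8-month calls. The 3-week and 8-month libraries share no samples.

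Genes whose effect grew with age were found in several lists. Over all genes tested 5.98% had a more positive and 3.26% a more negative effect at 8 months than at 3 weeks. Of 40 DAM genes, 36 had a more positive effect at 8 months than at 3 weeks, and of 33 homeostatic genes 13 a more negative one. Ribosomal proteins (34 of 75), type I interferon genes (13 of 39), cell cycle genes (13 of 30), MHC genes (11 of 25) and glycolysis genes (10 of 26) also gained. Among 43 hydrolases 9 gained and 1 lost. Among 21 V-ATPase subunits 2 gained and 2 lost, too few to read as a result about that list. Whether any list differed from the shares of all genes was not tested. Hpse was at 1.26, 1.81 and 0.279 CPM in WT and 12.7, 5.42, 8.71 and 6.14 CPM in SgshKO at 3 weeks, and at 0 and 0.215 and 117 and 95.5 CPM at 4 months; its effect grew from 3 weeks to 8 months by 7.29 ± 0.70 SE, adjusted p = 1.7e-07 on the log2 scale. Clec7a was at 25, 24.5 and 27 CPM and 68, 76.2, 52.8 and 60.1 CPM at 3 weeks (difference of effects 4.27 ± 0.36 SE, adjusted p = 4.4e-08). Ctsd was already higher at 3 weeks, at 9854, 9974 and 10883 CPM in WT and 18635, 20267, 20239.9 and 19801 CPM in SgshKO, and its effect did not pass as different at 8 months (adjusted p = 0.055).

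Of the genes also called at 8 months, the most positive differences from 3 weeks were in Retnlg, Padi4 and Ly6g, all neutrophil genes, and in Acpp, an acid phosphatase gene, all 4 at 0 counts in the WT libraries of 8 months, so that the fitted size is no bound and is not given. The most negative were in Gpr165 (651, 689.7 and 566 CPM in WT and 132, 154, 139.6 and 134 CPM in SgshKO at 3 weeks; difference -4.26 ± 0.31 SE, adjusted p = 2.9e-09), Colca2 (WT mean 0.866 CPM at 8 months and no count in SgshKO), Gm2897 (0.968 to 0.0251 CPM) and Unc79 (7.64 to 0.163 CPM).

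Between 4 and 8 months far fewer effects differed. Of the genes tested 56 passed (0.391%; 37, or 0.259%, more positive and 19, or 0.133%, more negative; 40 and 46 on TPM), with 1641 at an unadjusted p under 0.05, and each 4-month group had 2 libraries. At 4 months alone 2794 genes (19.5%; 10.3% higher and 9.26% lower) were called, and 2317 of them, 82.9%, were called in the same direction at 8 months, which is 40.0% of the 8-month calls. The neutrophil list was already higher at 4 months, with 14 of 16 members called. A p that misses the threshold does not show that the effects at both ages were alike.

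The clock list held 6 of the 56 genes, a larger number than any other list held. Hlf was at 44.8 and 31.1 CPM in WT and 10.1 and 16 CPM in SgshKO at 4 months, against the 8-month fall above (difference of effects -2.10 ± 0.39 SE, adjusted p = 0.015). Nr1d1 (difference -1.70 ± 0.34 SE, adjusted p = 0.023) and Dbp (difference -1.81 ± 0.31 SE, adjusted p = 0.0092) also had more negative effects at 8 months, and Bhlhe40, also a clock gene, a more positive one (2.96 ± 0.50 SE, adjusted p = 0.0092). The most negative also included Pstpip2 (-3.58 ± 0.76 SE, adjusted p = 0.035). The most positive were Armc2 (1 count in WT at 8 months, so that its fitted size is no bound; adjusted p = 0.048), Ahnak (3.86 ± 0.76 SE, adjusted p = 0.023; on TPM both lay below 0, at -0.12 and -0.30), 2610507I01Rik (3.84 ± 0.30 SE, adjusted p = 6.6e-08) and H2-Aa (3.07 ± 0.48 SE, adjusted p = 0.0044). H2-Aa was at 3.19 and 1.72 CPM in WT and 6.85 and 6.96 CPM in SgshKO at 4 months, so that this class II gene was under 7 CPM in every library but those of the oldest knockout. Anxa2 (2.26 ± 0.37 SE, adjusted p = 0.0069), Anxa5 (0.90 ± 0.18 SE, adjusted p = 0.03) and Fth1 (0.66 ± 0.14 SE, adjusted p = 0.031) also had more positive effects than at 4 months. These differences did not all lie in the knockout: Anxa2 was at 5.32 and 5.45 CPM in WT and 51.1 and 67.7 CPM in SgshKO at 4 months. Bhlhe40 was at 3.9 and 3.16 and 29.5 and 37.5 CPM, so that their WT levels were lower at 8 months while the SgshKO levels were not higher. Nr1d1 was at 19.7 and 16.4 and 15.5 and 15.6 CPM at 4 months, below its 8-month WT level in both genotypes. Leaving out either WT library of 4 months leaves 1 library in that group. In such fits the more negative differences, those of Hlf, Nr1d1, Dbp and Pstpip2 included, did not pass. These differences thus rest on both WT libraries of that age. The number of genes that passed varied widely when 1 library of 4 months was left out.

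**Figure D4:**
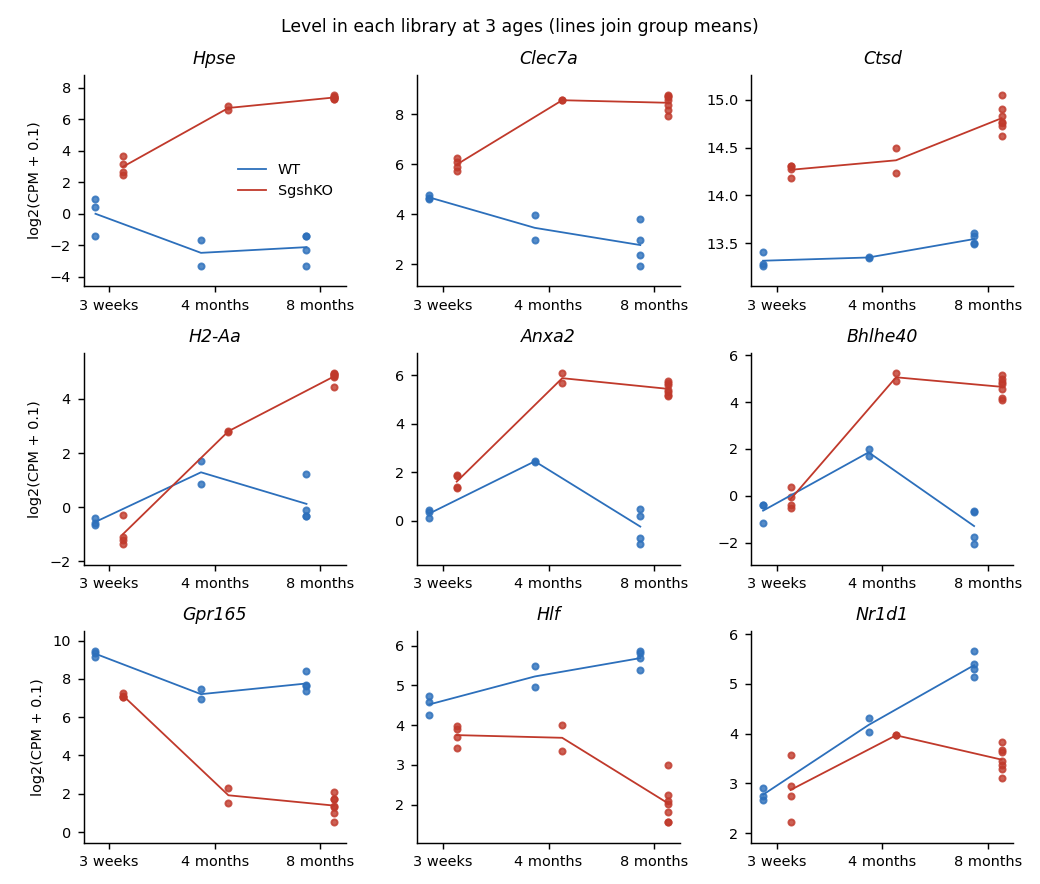
Level of 9 genes in each library at 3 weeks, 4 months and 8 months (horizontal axis; vertical axes, log2 of CPM + 0.1; blue WT, red SgshKO; lines join group means). Ctsd lay above WT in every SgshKO library at each age and Hpse and Clec7a separated further after 3 weeks; for Anxa2 and Bhlhe40 the WT libraries of 4 months lay above those of 8 months, and Hlf and Nr1d1 were highest in the oldest WT libraries.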

How the data were processed

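Polyadenylated RNA of sorted forebrain microglia was sequenced from strand-marking libraries, per the labels' protocols. Read counts per gene and TPM, which are scaled to transcript length and library size, were deposited by the authors for 22 libraries of 6 groups (WT and SgshKO at 3 weeks, 4 months and 8 months). The submitters' processing notes name STAR 2.5.3a, kallisto 0.44.0, HOMER 4.11, DESeq2 1.36.0, R 4.2.3 and the build mm10, without a role for each. The counting settings are not given in the sources used here. The labels name more than 1 RNA kit and do not tie them to libraries. Groups were taken from the sample titles.

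Of 24940 genes listed, 3898 had no count in any of the 22 libraries. Genes passing edgeR's filterByExpr (min.count 10) were kept, and 14309 were tested in 1 model over the 6 groups, which share the estimate of spread (edgeR 4.0.16 in R 4.3.3, TMM factors, quasi-likelihood F test, Benjamini-Hochberg adjustment over all genes, threshold 0.05). The contrast at 8 months and its differences from 3 weeks and 4 months were tested. CPM use the TMM library sizes, and the errors given are SE = |log2 fold change| / square root of F. Deposited TPM were tested on log2(TPM + 1) with limma 3.58.1, so that fold changes of low genes are understated there. DESeq2 1.42.0, RLE factors, no count filter, other pseudocounts, a covariate of Ddx3y minus Xist, the 8-month libraries alone and leaving out each library were alternatives. Leaving out SgshKO libraries 1 and 3, or 3, 6 and 7, was chosen after seeing the data. For genes with 0 counts in the 4 WT libraries a fold is a lower bound against 3 counts over the group, and intervals for 1 to 3 counts are exact at 95%; both cover counting error only. On simulated counts for 13915 genes with 200 changed, at the sizes of the 8-month groups, 72% of 2-fold and 87% of 4-fold changes were recovered. There 5.36% of calls were false. The changed genes were drawn only from those with a mean over 1 CPM, equally in both directions. In the data 40.5% of genes were called and increases were larger, so these rates cover neither low genes nor such an imbalance.

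The gene lists and the rules for genes named were chosen with earlier results of these data known. Genes named are the 12 largest increases and decreases among called genes without overlap at 10 CPM or more. From the same genes come the 6 largest increases and decreases by CPM. Also named are up to 4 called members of each list and the largest against its median. The 4 largest in each direction of each age difference follow, and Sgsh, the MITF family, Xist, Ddx3y and heparan sulfate degradation. Others are said to be chosen after their values were seen. Some genes that this rule names are not reported here. Promoters are from RefSeq (GRCm38.p6), matched by symbol and nearest start; 10980 of the 14309 genes (76.7%) matched, under the 80% needed, so shares over genes are void as a check. The antisense oligonucleotide libraries of the series were not used here.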

Additional observations from a re-analysis of the deposited data

Results flagged for a closer look

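For each of the 255 genes named, the library farthest from its group was checked by Dixon's test at 8 months, once among the 4 WT and once among the 7 SgshKO libraries. Of these 510 groups 79 held a library that stood apart. For normally spread values chance flags about 1 in 20 groups, a rate that does not hold for genes with few counts. A group with counts in only 1 library is flagged in any case, so the number of flags is no measure against that rate. The libraries that stood apart most often were WT library 4 (18 groups), SgshKO library 3 (16) and WT library 2 (12). Values below are CPM, and for genes near 0 CPM in WT a few counts set a library apart.

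WT library 1 was the highest for Acsl4 (145), Ccl6 (106), Il1r1 (2.64), Mcoln3 (0.0694), Oas3 (0.416) and Serinc3 (6450.2). WT library 2 was the highest for Ch25h (1.07), Chac1 (0.0485), Colec12 (0.291), Gbp6 (0.388), Gp9 (39.8), Gpc1 (0.436), H2-Aa (2.23), Mmp8 (0.194), Tgtp2 (0.824) and Tlr8 (0.436), and the lowest for Itga4 (0) and Slc38a9 (86.4). WT library 3 was the highest for Adam19 (0.0472), Apoc2 (0.0472), Armc2 (0.0472), Cxcl14 (0.33), Itgb2l (0.0472), Ly6c2 (0.0472), Ms4a7 (0.0472) and S100a6 (1.09). WT library 4 was the highest for Atp6v0a2 (618), C4b (21.3), Cd24a (0.0884), Clec4e (0.442), Fosl2 (190.1), Gbp7 (294), Gpr84 (146), Hif3a (111), Hs3st3b1 (43.4), Ier3 (66.7), Ifi203 (0.177), Il1rn (1.59), Plbd1 (0.796), Pparg (0.177), Rps27a (6.9), Sdc4 (25.8), Slfn8 (233) and Spp1 (6.19).

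SgshKO library 1 was the highest for Etv4 (23), Gpnmb (40.1) and Osgin1 (49.5). SgshKO library 2 was the highest for Aifm2 (11.4), C4b (643), Cdh5 (4.64), Gpc4 (15.9), Gusb (540.4) and P2ry2 (12.7), and the lowest for H2-Aa (21.8). SgshKO library 3 was the highest for Acpp (4.53), Ahnak (19.8), C3 (187), Camp (418), Cd44 (48.8), Clec4e (5.02), Inhba (14.6), Itgal (37.4), Ly6g (15), Mmp8 (54.4), Mmp9 (97.9), Padi4 (26.7), Plbd1 (39.4), Pstpip2 (6.2), S100a6 (17.7) and S100a9 (1301). SgshKO library 4 was the highest for Hlf (7.85). SgshKO library 5 was the highest for Itgav (293), and the lowest for Arsg (116) and Cd63 (188). SgshKO library 6 was the highest for Flt1 (17.1) and Sulf1 (4.57). SgshKO library 7 was the highest for Hs3st2 (0.452) and Unc79 (0.452), and the lowest for Gbp3 (5.42).

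Genotype effects differed between ages by the interaction term of the same model, for 1323 genes between 8 months and 3 weeks and for 56 between 8 and 4 months (edgeR, adjusted p under 0.05). Among the genes named, the log2 difference of effects from 3 weeks was Clec7a (4.27), Gpr165 (-4.26) and Hpse (7.29). From 4 months it was 2610507I01Rik (3.84), Ahnak (3.86), Anxa2 (2.26), Anxa5 (0.90), Armc2 (4.22), Bhlhe40 (2.96), Dbp (-1.81), Fth1 (0.66), H2-Aa (3.07), Hlf (-2.10), Nr1d1 (-1.70) and Pstpip2 (-3.58). For Armc2, with 1 WT count at 8 months, the fitted size is no bound.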

How the results depend on the processing

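The 5793 calls at 8 months stayed within 1.5 times under every alternative: 5416 with the 8-month libraries alone, 5814 with RLE factors, and 5938 in DESeq2. It was 5641 without the count filter, 5302 with the Ddx3y and Xist covariate, 6032 to 6411 on TPM. It was 5223 to 5945 when 1 library was left out, and 5163 and 5104 without SgshKO libraries 1 and 3 or 3, 6 and 7. Replicate numbers did not pair the libraries (correlations of same-numbered deviations -0.051, -0.026, 0.075 and -0.0040). With the replicate number as a block in the 8-month libraries alone 3972 genes passed, 3891 of them among the 5793. SgshKO libraries 5, 6 and 7 have no WT library of the same number, so they add nothing to the genotype effect in that fit. The loss of these libraries and the block cannot be told apart in this count. The difference from 3 weeks held for 927 (without WT library 1 of 3 weeks) to 1486 genes when 1 library was left out, against 1323. The difference from 4 months, 56 genes, was the least stable: 162 in DESeq2, 131 without the count filter, 86 on TPM, 270 on TPM without a filter, 13 without SgshKO libraries 3, 6 and 7, and 4 (without WT library 1 of 4 months) to 125 (without SgshKO library 1 of 4 months) when 1 library was left out. It was 15 without WT library 2 and 20 without SgshKO library 2 of 4 months, and 91 without SgshKO library 2 of 8 months. Where a 4-month group kept 1 library, that library was assumed to vary like the other groups. The cause was not tested. The 8-month effect kept its direction and its side of the threshold under every alternative for 223 of the 255 genes named. It changed sign for Sumf1, Sumf2 and Tfe3, none of which passed. Sumf1 was at -0.0031 in the 8-month libraries alone, -0.011 with the replicate block, -0.13 on TPM with either pseudocount or no filter, and -0.052 to 0.060 without single libraries. Sumf2 ran from -0.24 to 0.017 without single libraries. Tfe3 was at -0.072 on TPM with either pseudocount. Elane was at 0 without SgshKO libraries 1 and 3, since the other libraries hold no count of it. The difference from 4 months reversed on TPM for Ahnak (-0.30) and Armc2 (-0.12), with and without the filter. List medians changed sign under at least 1 alternative for 10 lists (heparan sulfate synthesis, MiT/TFE factors, autophagy, purinergic receptors, interleukin-1 and TNF, integrins, heat shock, endothelial, neuron and sex-linked). With 10875209 to 27106584 counts per library, genes under about 1 CPM rest on few reads.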
